A study of Mus musculus with 6 samples.

Results

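The cytosolic ribosomal protein genes described here were 82 of the 41388 genes in the deposited tables. They were chosen by symbol alone, as protein-coding genes in GENCODE M21 whose symbol begins with Rpl or Rps and a digit and holds neither "-ps" nor "k". Of these, 49 were large subunit (Rpl) genes and 33 were small subunit (Rps) genes. Rps19bp1 met the rule although it encodes a protein that binds a ribosomal protein. Genes of further ribosome components under other names, such as Rplp0, Rplp1, Rplp2, Rpsa, Fau and Rack1, did not meet it and were treated as a related list.

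The study compared bulk RNA-seq of lipid-laden (foamy) and non-foamy macrophages sorted from the aortic intima of atherosclerotic mice, with 3 libraries for each. All mice, in either group, were C57BL/6 of genotype ApoE -/-, so that every cell lacked the lipoprotein ligand ApoE, and they were fed a Western diet over 28 weeks. The foamy gate took live cells positive for CD64 and CD11b that were high in BODIPY493/503, a dye of neutral lipid, and in side scatter. The non-foamy gate took the same kind of cell with both signals low. The series names 6 mice, without their age or how they were divided over the libraries, and p-values therefore measure only the spread between libraries. The libraries held 24279802, 18592421 and 20641741 counts in genes for foamy 1 to 3, against 15628627, 16863185 and 24619075 for non-foamy 1 to 3.

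Each cytosolic ribosome joins a small subunit, which reads the mRNA, to a large subunit, which forms the peptide bonds, and most ribosomal proteins are present in it as a single copy. Most of these proteins are encoded in mammals by a single gene with introns, beside many processed pseudogenes that are near-identical copies of its mRNA. Their transcripts start with a terminal oligopyrimidine (TOP) tract, an unbroken run of C and T (C and U in the RNA), through which mTOR signalling controls their translation.

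Runs of pyrimidines stood near the RefSeq start of some members, though not of most. A RefSeq promoter (build GRCm38.p6) was found for 63 of the 82 members, and 19 had none in the table used. In the 30 bases around the annotated start, 26 of the 63 (41.3%) held an unbroken run of at least 8 C or T on the gene's strand, against 3760 of 27025 genes of all kinds (13.9%). The run covered the annotated start itself in 16 of the 63 (25.4%), against 1240 of 27025 genes (4.59%). The 6 windows below show such runs in capitals. They come from members of high counted level (Rpl4, Rps9, Rps27l, Rpl14, Rpl13a) and 1 of very low counted level (Rps6). Base 16 of each window is the annotated start, so the runs of Rpl4 and Rps27l lie before it, that of Rpl13a lies after it, and those of Rps9, Rpl14 and Rps6 cover it. Rpl4, chr9:64173372-64173401, plus strand, has a run of 11 bases.
Rpl4: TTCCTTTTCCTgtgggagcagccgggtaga
The Rps9 window is chr7:3704026-3704055 on the plus strand, with a run of 9 bases.
Rps9: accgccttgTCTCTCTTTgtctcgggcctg
For Rps27l it is chr9:66946071-66946100 on the plus strand, also with a run of 9 bases.
Rps27l: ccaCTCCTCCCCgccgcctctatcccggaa
Runs were measured inside the window only, and those of Rpl4 and Rpl13a reach its edge, so they may be longer. The longest inside a window, 14 bases, is that of Rpl14 at chr9:120571502-120571531 on the plus strand.
Rpl14: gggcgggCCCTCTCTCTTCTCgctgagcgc
Rpl13a lies on the minus strand, with its window at chr7:45128731-45128760 and a run of 13 bases.
Rpl13a: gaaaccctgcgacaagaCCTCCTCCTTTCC
Rps6, also on the minus strand, has its window at chr4:86857353-86857382 and a run of 10 bases.
Rps6: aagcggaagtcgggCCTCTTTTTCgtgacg
A second motif, CCGGAAG, the core recognised by ETS factors, was searched on both strands from 250 bases before to 50 bases after the start. It was found in 24 of 63 members (38.1%), against 2683 of 27025 genes (9.93%). Its reverse complement, CTTCCGG, can share its first bases with a run of C and T. These matches are letters in a window, and no factor was measured.

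Ribosomal protein genes covered a wide range of levels for parts of a single particle. Levels are given as the deposited RPKM, reads scaled to depth and to the deposited gene length. That length can far exceed the coding part, as for Rps3 (4483 against 729 coding bases), unlike Rpl32 (517 against 405). The order of levels depends on it. Rps3 had 99870 counts over all libraries but 182 RPKM, and Rpl32 had 44984 counts but 705 RPKM. RPKM order therefore need not be the order of mRNA levels. The mean over 6 libraries was highest for Rpl4 (726), which lines the peptide exit tunnel, and Rpl32 (705), another large subunit protein. Also among the highest were Rps14 (441), a protein of the small subunit platform, and Rpl8 (368), which lies near the peptidyl transferase centre. At the other end, 10 members had a mean RPKM under 1, 35 had one under 10 and 68 had one under 100. The 5 members with the most counts, among them Rpl4, Rps3, Rps14 and Rps9, held 46.3% of all member counts, and the top 20 held 83.8%.

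Rpl4 (chr9:64173387-64178562, plus strand, GRCm38) had 691, 748 and 660 RPKM in foamy libraries 1 to 3, against 632, 810 and 813 RPKM in non-foamy libraries 1 to 3. Rpl32 (chr6:115805505-115808747, minus strand) had 667, 734 and 515 RPKM in foamy libraries, against 527, 742 and 1047 RPKM in non-foamy libraries. These neighbours in the order of levels did not differ beyond their spread, and Rpl32 was the higher of the pair in non-foamy library 3. Rps14 had 391, 458 and 284 RPKM in foamy libraries, against 448, 468 and 597 RPKM in non-foamy libraries. Foamy and non-foamy values overlapped in all 3. The order of levels over the 82 members was nearly shared by the groups, with a Spearman correlation of 0.99 between mean foamy and mean non-foamy RPKM.

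**Figure D1:**
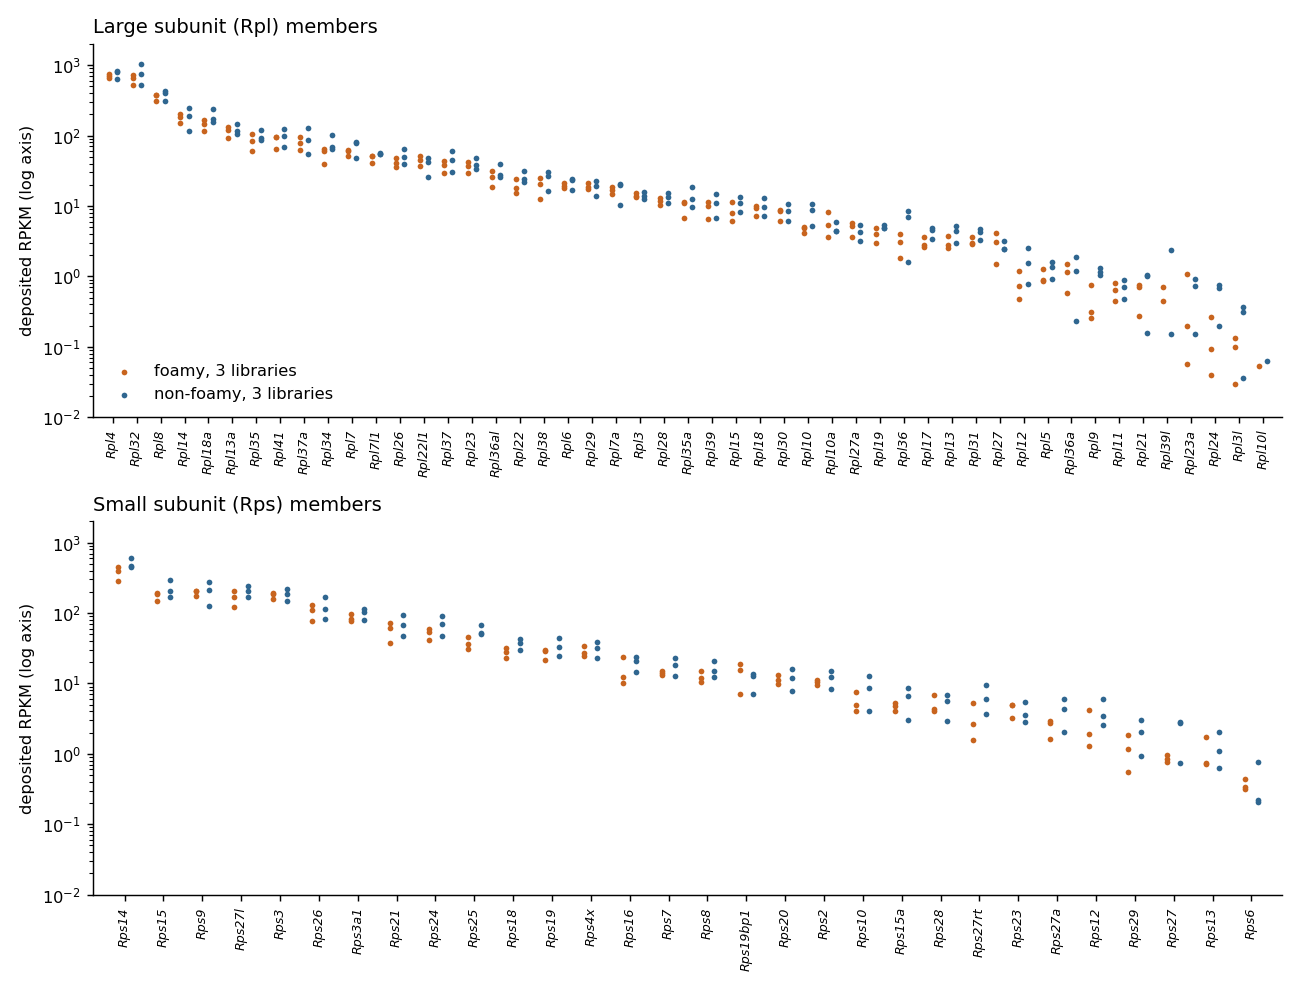
Deposited RPKM (log axis) of 79 of the 82 members, large subunit above and small subunit below, in order of mean level; orange points are the 3 foamy libraries and blue points the 3 non-foamy libraries. Levels run from over 700 RPKM for Rpl4 and Rpl32 to under 1 RPKM for 10 members, the colours lie among each other for nearly all genes, and 6 values listed at 0 (4 of Rpl10l, 2 of Rpl39l) are not drawn.

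The members lowest in the order of counted levels included genes with essential roles. Rps6 (chr4:86854660-86857412, minus strand), the small subunit protein phosphorylated by S6 kinase, had 12, 13 and 11 counts in foamy libraries, against 19, 6 and 8 counts in non-foamy libraries, a mean of 0.38 RPKM over all 6. Rpl23a, which sits at the mouth of the exit tunnel, had 4, 17 and 1 counts in foamy libraries, against 2, 13 and 15 counts in non-foamy libraries. Foamy and non-foamy values overlapped for both. Rpl11, which binds 5S rRNA and can hold Mdm2, had 42, 40 and 25 counts in foamy libraries, against 37, 32 and 32 counts in non-foamy libraries. Rpl21 had 59, 17 and 52 counts in foamy libraries, against 54, 9 and 87 counts in non-foamy libraries. With so few counts, counting error alone is large for such members, and the libraries carry no molecular identifiers, so counts are not separate molecules. Rps6, Rpl23a, Rpl11 and Rpl21 also had no stretch of coding sequence of read length that was unique among annotated genes. Over the whole transcript they shared such stretches with 14, 28, 10 and 82 other genes, in that order. Their low counts therefore need not mean low mRNA levels, and the part of shared sequence in them was not tested.

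Level went with how much of a member's coding sequence is its own. Each coding sequence was cut into all windows of 50 bases, the read length. Each window was looked for, exact and on both strands, in the GENCODE M21 transcripts of other genes. Genes that overlap the member's own locus were left out, so a window called unique may still be shared with such a gene. For 30 members no window was unique, for 4 every window was (among them Rpl3l, Rpl39l and Rps19bp1), and 78 shared at least 1 window with another gene. The 30 members with no unique window had a median of 3.27 RPKM and together held 3.38% of member counts. The 35 members with some unique windows but under 50% had a median of 29.6 RPKM and held 33.2%. The 17 members with 50% or more had a median of 182 RPKM and held 63.4%. As a description over members, which share these 6 libraries, the Spearman correlation of unique windows and mean RPKM was 0.63 (n = 82). Without Rps19bp1 and the paralogues Rpl3l, Rpl10l and Rpl39l, set aside after their values were seen, it was 0.83 (n = 78). How reads that map to several genes were counted is not given in the sources used here, and its part in these levels was not tested.

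A window from a member with none and from a member with many shows what is shared. Coding bases 471 to 520 of Rps6 stand letter for letter in 13 other annotated genes.
Rps6: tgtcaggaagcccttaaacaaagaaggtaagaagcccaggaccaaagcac
Coding bases 1 to 50 of Rpl4 stand in 0 other annotated genes away from its locus, as do 79.7% of its coding windows.
Rpl4: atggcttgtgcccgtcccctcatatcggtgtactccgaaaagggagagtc
Rpl4 had 23873, 19789 and 19364 counts in foamy libraries, against 14048, 19429 and 28467 counts in non-foamy libraries. Counted over the whole transcript and not only its coding part, Rpl7a shared a 50-base window with 123 other genes, the most of any member, and Rpl21 with 82. Rpl41, the shortest ribosomal protein, had no unique window and yet 91.2 RPKM, the highest level of the 30. Of the 82 members, 53 had a pseudogene named after them in the tables, and the 239 such pseudogenes together held 620 to 1395 counts per library.

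**Figure D2:**
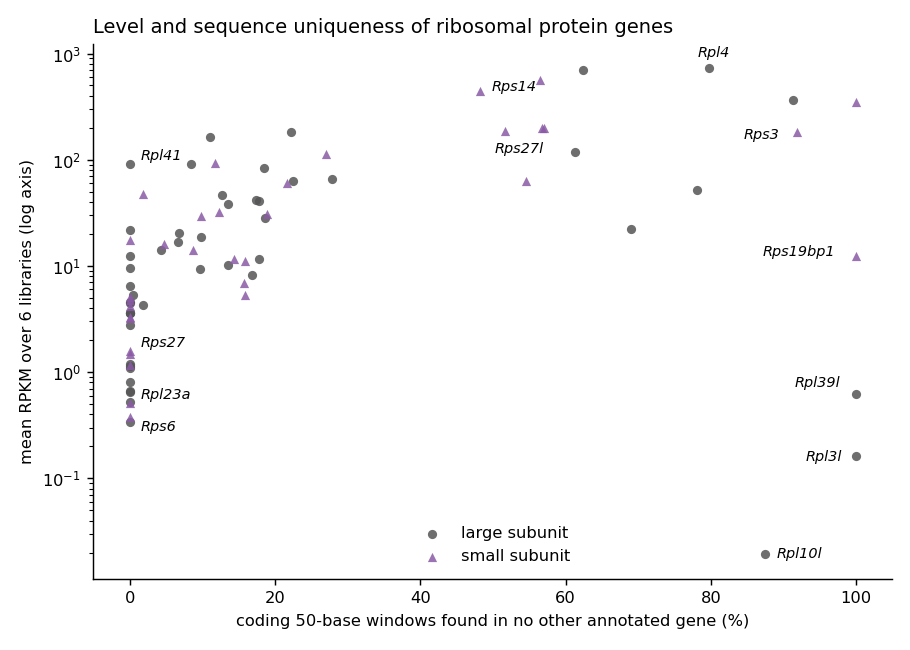
Mean deposited RPKM over 6 libraries (log axis) against the percent of each member's 50-base coding windows found in no other annotated gene, genes overlapping its locus left out. Circles are large subunit and triangles small subunit members. Members with no unique window reach 91.2 RPKM at most, those with 50% or more include Rpl4 at 726 RPKM, and the paralogues Rpl3l, Rpl39l and Rpl10l stand apart, mostly unique in sequence and under 1 RPKM.

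No ribosomal protein gene passed the test between foamy and non-foamy macrophages. In edgeR's quasi-likelihood test on the counts, 0 of the 76 members with enough counts to be tested had an adjusted p under 0.05, while 611 of 11303 genes tested did (5.41%). Nor did any of the 76 have an unadjusted p under 0.05, which 18.7% of all genes tested had, and DESeq2 called 0 members while it called 10.5% of genes. Taken as foamy over non-foamy, the median log2 fold change was -0.02 over the 76 members, with 36 above 0 and 40 below, and -0.04 over all genes tested. The 76 values ran from -1.17 to 0.56, and 70 lay within 0.5 of 0. Foamy and non-foamy values did not overlap for 2 of 76 members (2.63%), Rpl3 and Rpl9, while they did not overlap for 25.7% of all genes tested. By start sequence, the median log2 fold change was -0.01 over 25 tested members with a run of C and T and 0.02 over 33 without. It was -0.05 over 23 tested members with CCGGAAG and 0.05 over 35 without.

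A p that misses the threshold does not show equal levels, and the intervals say how much room is left. For 46 of the 76 members (60.5%) the 95% confidence interval lay within a log2 fold change of -1 to 1, so that a 2-fold difference was outside it, against 24.3% of all genes tested. The median SE was 0.33 over the members and 0.45 over all genes tested, and the 2 sets were not matched for counts. By sequence class the interval lay within -1 to 1 for 13 of 14 tested members with 50% or more unique windows, 30 of 35 with some, and 3 of 27 with none. Rpl4 had 1131, 1100 and 1042 CPM in foamy libraries, against 759, 1067 and 1118 CPM in non-foamy libraries (counts scaled to depth by TMM, the CPM used from here on). Its log2 fold change was 0.15, with a 95% interval from -0.25 to 0.56, the smallest SE of all members (0.185) and an edgeR adjusted p of 0.749. Rps3, which lines the mRNA entry, had 962, 896 and 785 CPM in foamy libraries, against 564, 781 and 952 CPM in non-foamy libraries, with a log2 fold change of 0.20 and an interval from -0.25 to 0.66.

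The pair whose libraries did not overlap in TMM-scaled CPM lay on opposite sides of 0. Rpl3, a large subunit protein that reaches to the peptidyl transferase centre, had 48.6, 49.8 and 48.0 CPM in foamy libraries, against 42.2, 40.2 and 37.8 CPM in non-foamy libraries. On this TMM scale every foamy value was the higher, with a log2 fold change of 0.29 ± 0.22 (SE, edgeR adjusted p = 0.555, n = 3 each). Scaled to total counts only, the log2 fold change of Rpl3 was 0.01, and in the deposited RPKM the groups overlapped, with 13.6, 15.5 and 13.9 in foamy libraries, against 16.001, 13.9 and 12.5 in non-foamy libraries. Rpl9 (chr5:65388364-65391443, minus strand), a large subunit protein near the binding site of elongation factors, had 0.900, 2.39 and 1.08 CPM in foamy libraries, against 2.97, 3.74 and 3.10 CPM in non-foamy libraries. Every foamy value was the lower, by a log2 fold change of -1.17 ± 0.78 (SE, edgeR adjusted p = 0.490, the lowest of all members, n = 3 each). Rpl9 rests on 19 to 79 counts per library and has no unique coding window, so the gene that gave rise to these reads is uncertain.

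The 6 members farthest below 0 included 5 with only 139 to 350 counts over all libraries. After Rpl9 came Rps27rt at -0.81, Rpl12, a protein of the stalk base, at -0.78, Rpl36 at -0.72, Rpl10, which joins the large subunit late in its assembly, at -0.55, and Rps29, a zinc-binding small subunit protein, at -0.50. Rpl10, the best counted of them, had 12.0, 10.3 and 9.47 CPM in foamy libraries, against 9.08, 16.5 and 21.02 CPM in non-foamy libraries. Its groups overlapped through non-foamy library 1 (edgeR adjusted p = 0.528). The other 4 after Rpl9 overlapped as well, with adjusted p from edgeR between 0.660 and 0.861. Of these 6, Rpl36 had 1.88% unique windows and the others had none.

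The 6 members farthest above 0 were Rps19bp1 (0.56), Rpl10a (0.46), Rpl22l1 (0.44), Rpl27a (0.43), Rps23 (0.39) and Rpl27 (0.39). Rps19bp1, whose product also regulates the deacetylase Sirt1, had 18.1, 13.2 and 6.57 CPM in foamy libraries, against 4.92, 9.83 and 10.9 CPM in non-foamy libraries. Foamy libraries 1 and 2 were the highest, and foamy library 3 lay among the non-foamy values (edgeR adjusted p = 0.623). Rpl10a, the protein of the mobile stalk at the tRNA exit side, had 14.5, 19.7 and 9.37 CPM in foamy libraries, against 8.87, 9.56 and 13.2 CPM in non-foamy libraries. Rps23, which takes part in decoding, had 4.36, 3.84 and 2.75 CPM in foamy libraries, against 1.84, 2.53 and 3.97 CPM in non-foamy libraries. In each of these 6 the groups overlapped, and edgeR's adjusted p ran from 0.569 to 0.832.

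**Figure D3:**
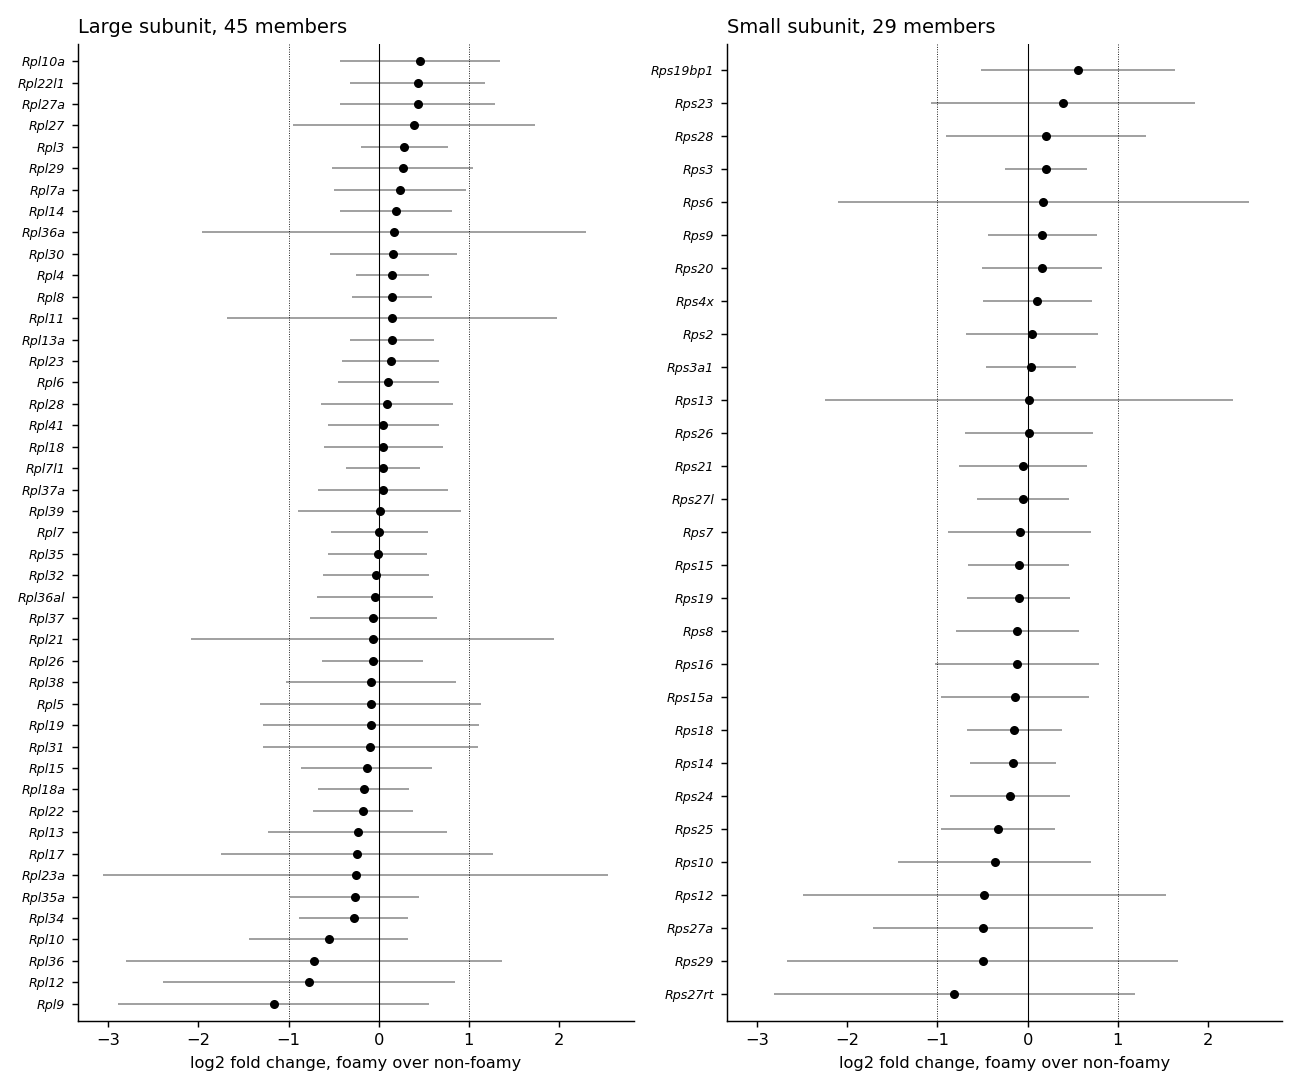
Log2 fold change of 74 of the 76 tested members from edgeR, foamy over non-foamy (points), with 95% confidence intervals (lines), large subunit on the left and small subunit on the right; dotted lines mark a 2-fold difference. Every interval crosses 0, and the widest belong to members with few counts such as Rpl23a, Rps6 and Rps13.

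Some paralogues differed widely in counted level and others did not. Rps27, a zinc-finger protein of the small subunit, has a retrogene copy, Rps27rt, whose coding sequence is identical over all 252 bases, and a diverged paralogue, Rps27l, with 76.2% identity. The first 60 coding bases are shown, with the bases of Rps27l that differ from Rps27 in capitals, 18 in all.
Rps27: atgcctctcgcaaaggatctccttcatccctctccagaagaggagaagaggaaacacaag
Rps27rt: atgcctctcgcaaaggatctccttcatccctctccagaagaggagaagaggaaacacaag
Rps27l: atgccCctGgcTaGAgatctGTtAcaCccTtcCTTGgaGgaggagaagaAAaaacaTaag
The annotated genes lie at chr3:90212725-90213615 on the minus strand for Rps27, at chr9:114982371-114982740 on the minus strand for Rps27rt, and at chr9:66946086-66949516 on the plus strand for Rps27l. Rps27l, a p53 target gene, had 168, 207 and 123 RPKM in foamy libraries, against 171, 205 and 239 RPKM in non-foamy libraries. Rps27 had 6, 4 and 4 counts in foamy libraries, against 3, 12 and 17 counts in non-foamy libraries, too few for the filter on low counts. Rps27rt had 24, 36 and 12 counts in foamy libraries, against 21, 38 and 87 counts in non-foamy libraries. Since no coding window tells Rps27 from Rps27rt, how their counts divide between the loci is uncertain. Neither has a unique coding window, while 51.7% of those of Rps27l are unique. Their counts therefore do not show that Rps27l mRNA exceeds Rps27 mRNA. Rps27l averaged 148 ± 32.9 CPM in foamy libraries, against 154 ± 35.0 CPM in non-foamy libraries (SD, n = 3 each), a log2 fold change of -0.05 with an interval from -0.57 to 0.46.

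Rpl22 and Rpl22l1 encode RNA-binding large subunit proteins that can replace each other. Rpl22 had 60.6, 72.6 and 49.6 CPM in foamy libraries, against 53.4, 64.1 and 88.8 CPM in non-foamy libraries, a log2 fold change of -0.17 (edgeR adjusted p = 0.798). Rpl22l1 had 25.0, 26.1 and 20.2 CPM in foamy libraries, against 10.8, 19.0 and 22.8 CPM in non-foamy libraries, a log2 fold change of 0.44 (edgeR adjusted p = 0.569). Both overlapped between the groups, and the lowest Rpl22l1 value was that of non-foamy library 1. Their mean levels over 6 libraries were 22.4 RPKM for Rpl22 and 41.6 RPKM for Rpl22l1. By counts over the 6 libraries the order was the reverse, with 7920 for Rpl22 and 2498 for Rpl22l1. The deposited lengths that scale RPKM are 2911 and 489 bases. Unique coding windows also differed, 69.0% for Rpl22 and 17.4% for Rpl22l1, so which mRNA is the more abundant is uncertain. Rpl7 and Rpl7l1, a paralogue known for a role in ribosome assembly, were close in counted level, with means of 63.3 and 51.4 RPKM. Unique coding windows were 22.5% for Rpl7 and 78.1% for Rpl7l1, so their mRNA levels need not be close. Their log2 fold changes were 0.01 and 0.05. Rpl7l1 averaged 136 ± 18.7 CPM in foamy libraries, against 132 ± 6.15 CPM in non-foamy libraries (SD, n = 3 each).

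In the pair Rpl36a and Rpl36al, the copy Rpl36al was the higher. Rpl36al, which shares 87.7% of 318 coding bases with Rpl36a, had 25.5, 31.7 and 18.7 RPKM in foamy libraries, against 25.6, 27.7 and 39.2 RPKM in non-foamy libraries. Rpl36a had 0.572, 1.49 and 1.14 RPKM in foamy libraries, against 0.232, 1.86 and 1.20 RPKM in non-foamy libraries. Rpl36a had no unique coding window, while 18.6% of those of Rpl36al were unique. Rps4x, the X-linked small subunit protein, had 45.7, 56.6 and 48.8 CPM in foamy libraries, against 31.2, 48.2 and 60.6 CPM in non-foamy libraries, a log2 fold change of 0.11.

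Tissue-restricted paralogues were at or near 0. Rpl3l, known from striated muscle, had 4, 4 and 1 counts in foamy libraries, against 8, 1 and 15 counts in non-foamy libraries. Rpl10l, known from testis, had 0, 1 and 0 counts in foamy libraries, against 1, 0 and 0 counts in non-foamy libraries. Rpl39l, also known from testis, had 9, 11 and 0 counts in foamy libraries, against 2, 0 and 49 counts in non-foamy libraries, so that 1 library held most of its counts. These 3 were among the 6 members that did not pass the filter on low counts, as were Rps27 and Rpl24. Rpl24, a protein at the bridge between the subunits, had 1, 5 and 2 counts in foamy libraries, against 11, 13 and 5 counts in non-foamy libraries. Rpl24 had no unique coding window. The widely expressed paralogues were better counted, Rpl39 with 1805 and Rpl10 with 1617 counts over the 6 libraries. Rpl39l shares 85.0% of its coding bases with Rpl39, and Rpl10l shares 84.7% with Rpl10.

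Summed over all members, ribosomal protein genes took at most 1.00% of counts in a library. Their share of all counts in genes was 0.737%, 0.806% and 0.606% in foamy libraries 1 to 3, against 0.643%, 0.825% and 1.00% in non-foamy libraries 1 to 3. The groups overlapped, and the mean share was 0.716% ± 0.101 in foamy and 0.823% ± 0.179 in non-foamy libraries (SD, n = 3 each). The difference of -0.106 percentage points had an exact two-sided permutation p of 0.4, which is 0.8 after Benjamini-Hochberg adjustment over 2 tests, where 3 libraries against 3 cannot give less than 0.1. As CPM scaled by TMM, the members summed to 7846 ± 966 in foamy and 7582 ± 2121 in non-foamy libraries (SD, n = 3 each). The sign of the group difference thus depends on the scaling. Scaling to total counts alone moved the median log2 fold change of the members to -0.27 and that of all genes tested to -0.31. The median of the members lay above that of all genes tested under either scaling. The 30 members with no unique coding window held only 3.38% of member counts. How reads shared between genes were counted is not given, so a share of counts need not be a share of mRNA.

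The balance of subunit counts was close to even in every library. Small subunit members summed to 1.02, 1.03 and 1.00 times the counts of large subunit members in foamy libraries, against 0.991, 1.01 and 1.10 times in non-foamy libraries. The log2 ratio, foamy minus non-foamy, differed by -0.02, with an exact two-sided permutation p of 0.9 (0.9 after adjustment over 2 tests, n = 3 each). Large subunit members took 0.355% ± 0.048 of counts in foamy and 0.404% ± 0.077 in non-foamy libraries, and small subunit members took 0.361% ± 0.053 in foamy and 0.419% ± 0.102 in non-foamy libraries (SD, n = 3 each). The median log2 fold change was 0.01 over 45 tested large subunit members and -0.05 over 31 tested small subunit members. Within each subunit single genes weigh heavily in such sums, since the 5 best counted members alone held 46.3% of member counts. Members with no unique coding window together held 3.38%, so the even balance describes counted reads and need not hold for the mRNA.

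**Figure D4:**
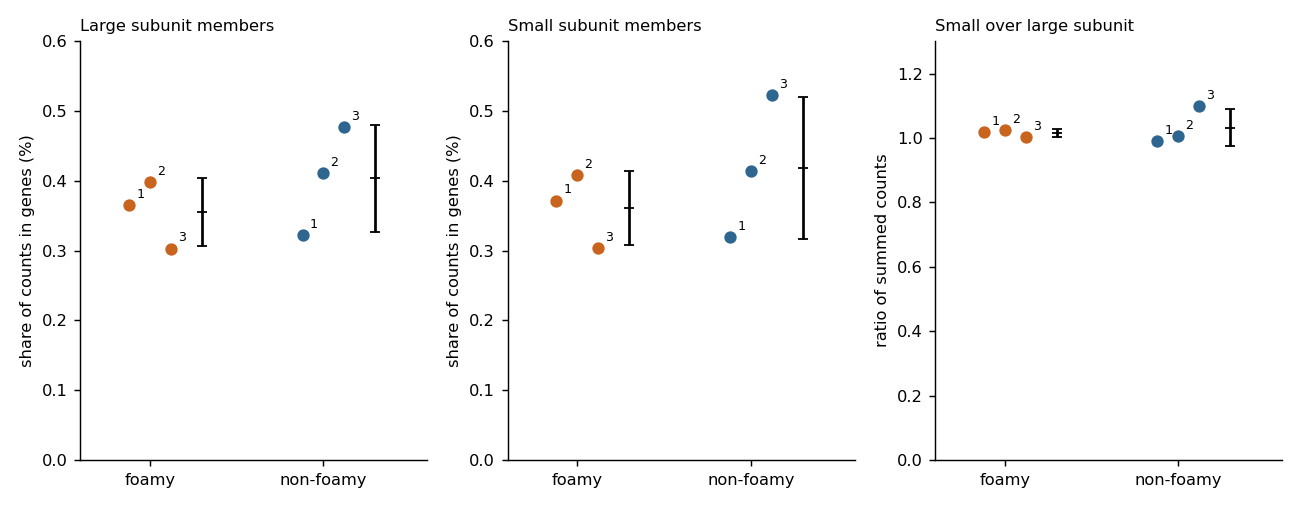
Share of all counts in genes that fell in large subunit members (left) and small subunit members (middle), and the ratio of small to large subunit counts (right), per library (points, numbered by replicate) with mean ± SD (bars, n = 3 each). Foamy shares lie inside the range of non-foamy shares apart from the lowest foamy library, and the ratio stays between 0.991 and 1.10.

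Members moved together from library to library. Taking each tested member as log2 of its CPM over its own mean, the median over the 76 members was 0.09, 0.13 and -0.30 in foamy libraries 1 to 3, against -0.52, 0.00 and 0.40 in non-foamy libraries 1 to 3. The spread inside each group was thus wider than the difference between the group means. Non-foamy library 1 was the lowest of its group for 65 of 76 members (85.5%), as it was for 35.5% of all genes tested. Non-foamy library 3 was the highest of its group for 59 members (77.6%, against 34.1% of all genes tested). Foamy library 3 was the lowest of its group for 64 members (84.2%, against 31.8% of all genes tested).

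Other gene sets had the same lowest library in each group. The median of 75 mitochondrial ribosomal protein genes was 0.30, 0.14 and -0.09 in foamy libraries 1 to 3, against -0.41, -0.11 and 0.10 in non-foamy libraries 1 to 3. The shortest 10% of the other protein-coding genes tested, 1051 genes of at most 1516 bases, had medians of 0.19, 0.09 and -0.14 in foamy libraries, against -0.42, -0.09 and 0.18 in non-foamy libraries. Members lay farther from 0 than these genes in foamy library 3 and in non-foamy libraries 1 and 3. Of 13 listed mitochondrially encoded genes, 5 had 0 counts in every library, so a share of counts in such genes need not hold all mitochondrial mRNA. Mitochondrially encoded genes took 1.66%, 2.05% and 1.43% of counts in foamy libraries 1 to 3, against 1.43%, 2.05% and 2.29% in non-foamy libraries 1 to 3. Within each group that share was lowest in the same 2 libraries as the members. Smooth muscle markers summed to 6.73, 9.45 and 33.8 CPM in foamy libraries, against 30.5, 7.03 and 11.8 CPM in non-foamy libraries, highest in those 2 libraries. Fibroblast markers summed to 6.68, 2.89 and 170 CPM in foamy libraries, against 129, 12.4 and 306 CPM in non-foamy libraries, highest in foamy library 3 and non-foamy library 3. The part that transcript length, the mitochondrial share or these markers have in the pattern was not tested.

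**Figure D5:**
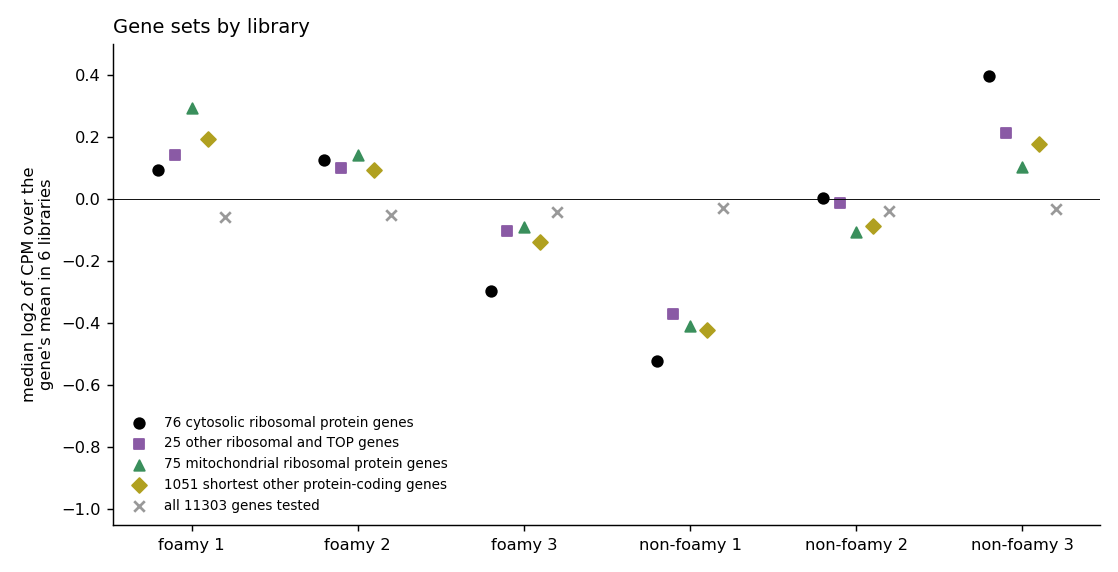
Median over genes of log2 CPM relative to each gene's mean in 6 libraries, by library, for the 76 tested members (black circles), 25 other ribosomal and TOP genes (squares), 75 mitochondrial ribosomal protein genes (triangles), the shortest 10% of the other protein-coding genes (diamonds) and all 11303 genes tested (crosses). The members are lowest in non-foamy library 1 (-0.52) and highest in non-foamy library 3 (0.40), the other sets of short or TOP genes follow the same direction in those libraries, and all genes tested stay near 0.

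Ribosome components outside the naming rule numbered 7, against a share of 5.41% called over all genes tested, so that 0 calls are near the background. Of the related list, 0 of 7 genes passed the edgeR threshold, 0 had an unadjusted p under 0.05 and DESeq2 called 0. Rplp0, the core of the acidic stalk, averaged 446 ± 5.95 CPM in foamy libraries, against 389 ± 85.6 CPM in non-foamy libraries (SD, n = 3 each). Rack1, the signalling scaffold on the small subunit head, averaged 627 ± 55.8 CPM in foamy libraries, against 583 ± 113 CPM in non-foamy libraries (SD, n = 3 each).

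For factors that work with the ribosome, the background over all genes tested was 2.5% called higher and 2.9% called lower by edgeR, 18.7% at an unadjusted p under 0.05 and 10.5% called by DESeq2. No list was tested against that background. Of 18 elongation factors and other genes with TOP mRNAs, edgeR called 0 (2 at an unadjusted p under 0.05), and DESeq2 called 1 higher. Eef2, which drives translocation and had the lowest p of that list, averaged 239 ± 12.8 CPM in foamy libraries, against 166 ± 5.42 CPM in non-foamy libraries (SD, n = 3 each), a log2 fold change of 0.53 ± 0.16 (SE, edgeR adjusted p = 0.0960). Of 23 initiation factors edgeR called 0 (5 unadjusted), and DESeq2 called 1 higher. The list median was a log2 fold change of 0.07, and Eif3a, a scaffold of the initiation factor eIF3, averaged 166 ± 15.9 CPM in foamy libraries, against 95.8 ± 23.8 CPM in non-foamy libraries (SD, n = 3 each, edgeR adjusted p = 0.062). Of 40 tested ribosome biogenesis genes edgeR called 0 (2 unadjusted) and DESeq2 called 0, with a median of -0.11. Nop58, a core protein of box C/D particles that guide rRNA methylation, averaged 39.6 ± 11.0 CPM in foamy libraries, against 66.8 ± 8.00 CPM in non-foamy libraries (SD, n = 3 each, edgeR adjusted p = 0.124). Of 13 tested ribosome rescue genes edgeR called 0 (1 unadjusted) and DESeq2 called 0.

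Among regulators of ribosome production, edgeR called Myc alone. Of 18 tested genes of the mTOR and Myc axis, edgeR called 0 higher and 1 lower, and DESeq2 called 2 lower. Myc, a transcription factor known to raise ribosomal protein and rRNA synthesis, had 42.5, 31.5 and 35.4 CPM in foamy libraries, against 73.0, 75.2 and 62.6 CPM in non-foamy libraries. Every foamy value was below every non-foamy value, with a log2 fold change of -0.94 ± 0.23 (SE, edgeR adjusted p = 0.0341, n = 3 each). That call was lost in 5 of 6 fits without a single library, all but the fit without non-foamy library 3, where the log2 fold change ran from -1.06 to -0.84 and the edgeR adjusted p from 0.0467 to 0.160. Of 75 tested mitochondrial ribosomal protein genes, edgeR called 1 higher and 0 lower (13 at an unadjusted p under 0.05), and their median was 0.22. Over all genes tested, edgeR called 2.5% higher and 2.9% lower, and 18.7% had an unadjusted p under 0.05. Mrpl44 averaged 34.8 ± 5.53 CPM in foamy libraries, against 11.9 ± 5.70 CPM in non-foamy libraries (SD, n = 3 each), a log2 fold change of 1.55 (edgeR adjusted p = 0.0340). Its call was lost in 5 of 6 fits without a single library, all but the fit without non-foamy library 2, with log2 fold changes from 1.29 to 2.00 and edgeR adjusted p from 0.0184 to 0.148.

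Markers of cell state differed between the groups while no ribosomal protein gene passed the test. Of 19 early-response and stress genes, listed as ones that tissue digestion can raise, 15 were lower in foamy libraries by edgeR. The list summed to 2618 to 3205 CPM in foamy libraries and to 6225 to 8498 CPM in non-foamy libraries. Digestion times were the same for all libraries, and the part of digestion in this difference was not tested. Of 10 macrophage markers 4 were higher and 4 lower, with sums of 51758 to 56728 CPM in foamy libraries and 25702 to 32309 CPM in non-foamy libraries. Most of that sum came from Lyz2 and Cd68. Lyz2, the macrophage lysozyme, averaged 34283 ± 911 CPM in foamy libraries, against 14312 ± 3117 CPM in non-foamy libraries (SD, n = 3 each). Cd68, a lysosomal macrophage protein, averaged 11604 ± 742 CPM in foamy libraries, against 5922 ± 281 CPM in non-foamy libraries (SD, n = 3 each). The 4 lower were Csf1r (log2 fold change -1.28), Cd14 (-0.93), Itgam (-0.87), which encodes CD11b, and Adgre1 (-0.83). Of 8 tested monocyte markers 7 were lower, with sums of 159 to 208 CPM in foamy libraries and 762 to 1035 CPM in non-foamy libraries. The monocyte list and the early-response list share a gene that was called lower. Of the markers of other cells, edgeR called 1 of 3 tested neutrophil genes lower (S100a9), 1 of 2 T cell genes higher (Cd4) and 1 of 2 B cell genes lower (Ighm). The other tested T cell gene, Cd2 (log2 fold change -1.20), and the other tested B cell gene, Cd79b (0.22), were not called. Cd3d, Cd3e, Cd3g and Trac did not pass the filter on low counts, so Cd4 alone does not show T cells. Csf3r of the neutrophil list averaged 19.9 ± 6.06 CPM in foamy libraries, against 7.63 ± 1.48 CPM in non-foamy libraries (SD, n = 3 each, edgeR adjusted p = 0.0634), and DESeq2 called 1 gene of that list higher and 3 lower. Among the tested genes of the remaining lists, edgeR called 0 of 5 smooth muscle, 0 of 3 endothelial, 0 of 5 fibroblast and 0 of 7 mitochondrially encoded genes. In these 4 lists 0 had an unadjusted p under 0.05 and DESeq2 called 0. T cell, smooth muscle, endothelial and neutrophil lists summed to at most 43.8 CPM in any library. The B cell list reached 124 CPM in foamy libraries and 692 CPM in non-foamy libraries, nearly all from Ighm. In such bulk samples, fewer cells of a type and less RNA per cell cannot be told apart. The part of these markers, or of any cells that carry them, in the members' levels was not tested.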

How the data were processed

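RNA was measured in 3 foamy and 3 non-foamy libraries, made, per the labels' protocols, with the SMARTer Ultra Low kit and read as single 50-base reads with no molecular identifiers named. Per the submitters' processing notes, the tools were Subread, featureCounts 1.4.5 and STAR 2.0.4b, with the build GRCm38. For strandedness and for reads mapping to several genes, the setting is not given in the sources used here. The deposited counts are whole reads per gene, not normalized, per the file headers. The deposited CPM and RPKM values are those counts scaled to depth, and to depth and gene length, per the file headers.

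Symbols and gene types came from GENCODE M21 and matched 40254 of 41388 genes (97.26%). Coordinates come from the deposited tables. The test was the robust quasi-likelihood F-test of edgeR 4.0.16 in R 4.3.3, after filterByExpr and TMM, with p-values adjusted by Benjamini-Hochberg over the 11303 genes that passed and called under 0.05. An SE is the size of a log2 fold change over the square root of its F, and CPM means use TMM scaling. TMM factors were 0.869 to 0.967 in foamy and 1.03 to 1.18 in non-foamy libraries, and the biological coefficient of variation was 0.505. Shares and ratios were compared by exact permutation over libraries. Counting intervals and floors would cover counting error only.

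Named members are the 6 largest rises and falls, the 4 highest and lowest tested levels, listed paralogues, those failing the filter, and related genes by lowest p; Rps3, Rps9, Rpl8, Rpl14, Rpl13a, Rpl41, Rpl7a and single cell markers were added after their values were seen. Some members and list genes, counted in every total, are not reported here by name. Members and lists were chosen with earlier results of these data known. Alternatives were other scalings, DESeq2 1.42.0, other filters, the replicate number as a block, other member subsets and each library left out.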

Additional observations from a re-analysis of the deposited data

How the results depend on the processing

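The count of genes called, 611, was 1430 with DESeq2 (of 13592 genes with an adjusted p), 391 with the replicate block, and 271 to 579 when each library was left out. The cause of these shifts was not tested, beyond the fewer samples in the last. The number of members called was 0 in all 13 alternative gene-wise fits. Without non-foamy library 1, 1 member had an unadjusted p under 0.05.

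The median log2 fold change of the members, the share and the ratio moved by less than the spread between replicates in every alternative run. The median ran from -0.23 to 0.21 with 1 library left out, lowest without non-foamy library 1 and highest without non-foamy library 3, and was -0.27 with total counts only. The share difference ran from -0.196 to -0.018 percentage points and the log2 ratio from -0.05 to 0.02 with 1 library left out. Signs of single members are not firm, since 16 of the 29 named members tested changed sign in at least 1 alternative, the largest of these being Rpl23a (0.25 in size).

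Whether libraries with the same replicate number share mice is not stated, and with 3 libraries per group the values cannot decide it. Correlations of same-numbered deviations were -0.07, -0.02 and -0.03. No foamy library correlated best with the non-foamy library of its own number. The call of Myc was lost in 7 of 13 alternatives and that of Mrpl44 in 6.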
